A study of Mus musculus with 12 samples.

Results

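The 4 Hox clusters of the mouse were read in fibroblasts sorted from newborn skin. The members are all genes whose symbol is Hox followed by a cluster letter a to d and a paralogue number, and 34 of the 39 such genes in RefSeq were measured among 17097 genes in all: 9 of cluster a, 10 of cluster b, 6 of cluster c and 9 of cluster d. Only probe sets with a single gene symbol were used, and where a gene had several, the brightest one on average stood for it.

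Skin of 3 female littermates aged 2 days (animals 1 to 3) was freed of the subdermis and digested, and the fibroblasts were sorted by surface proteins into 4 populations, each measured on 1 Affymetrix array per animal. All 4 populations were sorted as negative for CD45, CD117, CD31 and EpCam and as positive for Pdgfra and CD34. The papillary population was CD26+, Dlk1- and Sca1-, and the reticular population was CD26-, Dlk1+ and Sca1-. The remaining populations, which the labels call pre-adipogenic, were CD26- and either Dlk1+ Sca1+ or Dlk1- Sca1+. The labels name no genotype, strain, treatment or body region of the skin, so the axial level of the samples is not known. Each array held amplified RNA of 4500 cells.

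Hox genes encode homeodomain transcription factors that give cells a position along the body axis and the limbs. Within a cluster the genes lie in the order of their paralogue numbers, and genes with low numbers are switched on earlier and reach further towards the head than genes with high numbers, a property called collinearity. Fibroblasts keep the Hox pattern of the body region from which they came, and Hox proteins bind DNA together with partner homeodomain proteins of the Pbx, Meis and Pknox families.

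Levels below are deposited log2 RMA values, and a difference of 1 on this scale is a 2-fold difference. A mean is given with its SD over n = 3 animals, and a difference with the standard error (SE) of limma's fit. The animals are littermates, and p-values measure the spread between these samples. A gene was called where limma's p, adjusted over all 17097 genes by Benjamini-Hochberg, was under 0.05. The level of a probe set depends on its sequence, so levels were compared between populations and not between genes.

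The sorting marker transcripts followed the gates only in part. Dpp4, which encodes CD26, had means of 10.61 in papillary and 6.26 to 6.37 in the other populations. Dlk1 means were 12.97 in reticular, 12.86 in Dlk1+ Sca1+, 11.39 in Dlk1- Sca1+ and 9.97 in papillary cells, so the Dlk1- Sca1+ gate held more Dlk1 transcript than the papillary gate. The 10 fibroblast markers were all above the dim reference in each population. The array medians ran from 6.21 to 6.34. The array of the reticular cells of animal 3 and the arrays of animal 2 stood apart for a few Hox genes, which are described by name below.

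A reference for dim probe sets came from 74 olfactory and vomeronasal receptor genes, whose means over the 12 arrays had a 95th percentile of 5.95 and a highest value of 6.5. Of the 34 Hox genes, 19 had a mean above 5.95 and 15 did not. Those 15 were spread unevenly over the paralogue numbers. They held 6 of the 7 genes with numbers 11 to 13, all but Hoxa13, whose mean of 5.97 lay just above the reference. They also held 2 of 7 genes with numbers 9 to 10, 2 of 9 with numbers 5 to 8 and 5 of 11 with numbers 1 to 4. Probe sets near this reference understate differences.

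The moderated F-test over the 4 populations called 16 of the 34 Hox genes, 47.1% against 35.7% of all genes. The main pattern was a higher level in papillary cells. In 9 Hox genes, 26.5% of them, all 3 papillary arrays lay above the 9 other arrays, and 10.7% of all genes showed this. These were Hoxb2, Hoxb3, Hoxb4 and Hoxb5, Hoxc4 and Hoxc8, Hoxd8 and Hoxd9, and Hoxa9. In 0 Hox genes did all 3 papillary arrays lie below the others, against 9.88% of all genes. In these sorted bulk samples, fewer cells that hold a transcript and less of it per cell cannot be told apart.

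**Figure D1:**
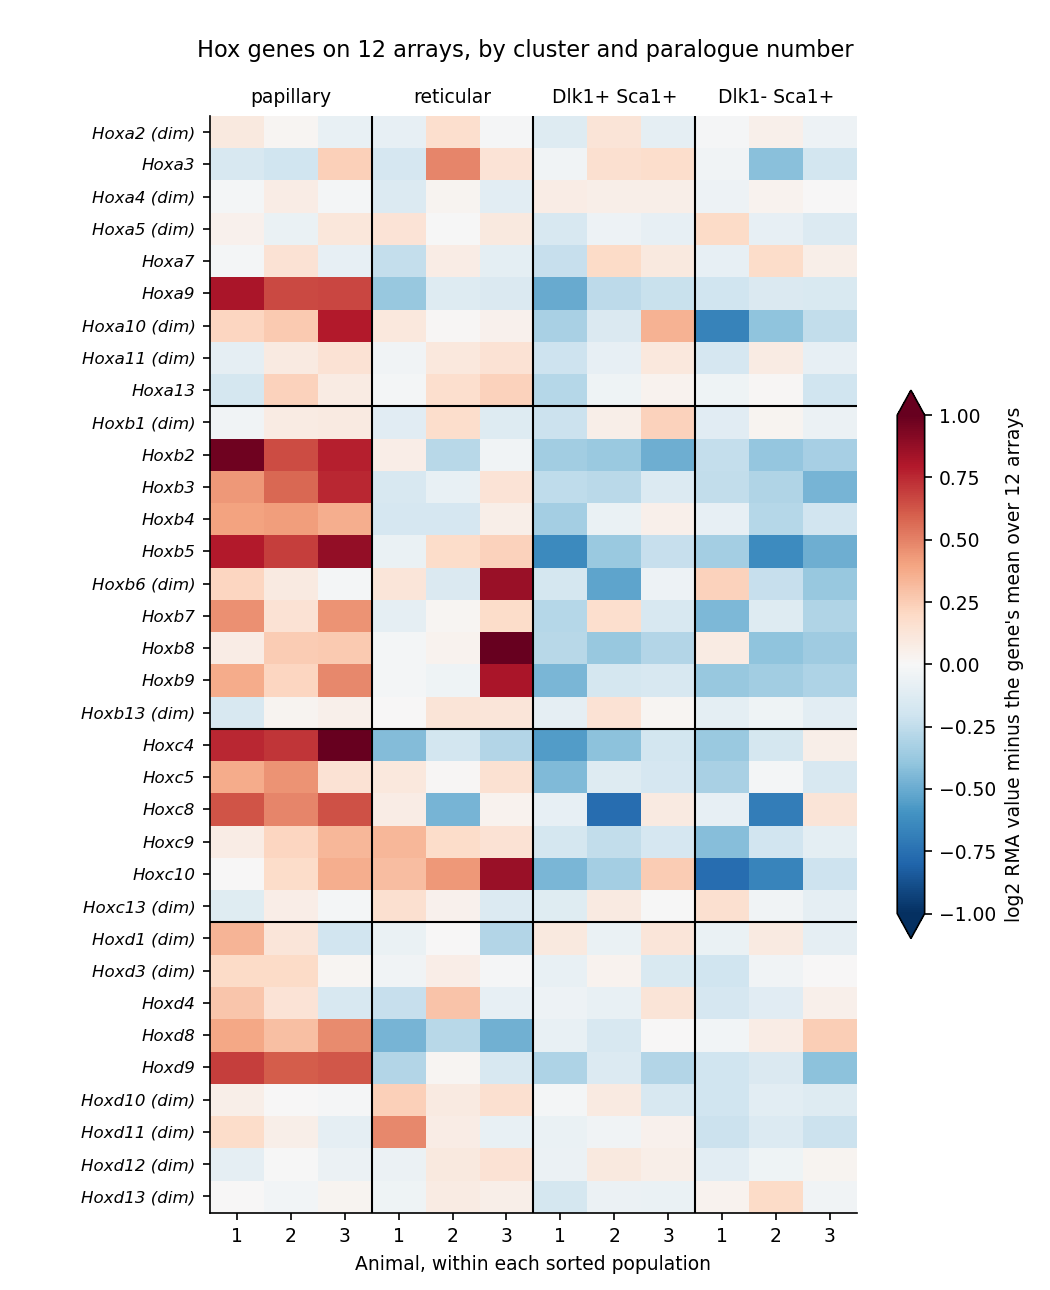
Log2 value of each of the 34 Hox genes on the 12 arrays, minus the mean of that gene over the 12 arrays, with genes in rows by cluster and paralogue number and arrays in columns by population and animal; "dim" marks a gene whose mean was not above 5.95, and the colour scale ends at -1 and 1. The 9 genes from Hoxa9 to Hoxd9 named in the text are above their mean in all 3 papillary arrays, and the reticular array of animal 3 stands out in Hoxb6, Hoxb8 and Hoxb9.

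Against reticular cells, 9 Hox genes were called, 26.5% against 27.5% of all genes. All 9 were higher in papillary cells and 0 lower, while 13.9% of all genes were higher and 13.6% lower. The 9 are the genes listed above, and their differences ran from 0.49 for Hoxb4 to 1.15 for Hoxc4, or 1.4-fold to 2.22-fold. The median difference was 0.09 over the 34 Hox genes and 0.31 over the 19 brighter ones, against -0.01 over all genes. With the animal as a block in the fit, 11 Hox genes were called. The block added Hoxa10, at 0.37 ± 0.12 (SE, limma adjusted p = 0.0386), and Hoxc10, which was then lower in papillary cells, at -0.35 ± 0.08 (SE, limma adjusted p = 0.00498).

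Against Dlk1+ Sca1+ cells, 13 Hox genes were called, 38.2% against 28% of all genes. All 13 were higher in papillary cells and 0 lower, while 14.1% of all genes were higher and 13.9% lower. Hoxb7, Hoxb9, Hoxc5 and Hoxc9 were called here in addition to the 9 genes. The median difference was 0.27 over the 34 Hox genes against 0.00 over all genes. The block raised the count to 15 by adding Hoxa10 and Hoxc10, both higher in papillary cells.

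Against Dlk1- Sca1+ cells, 15 Hox genes were called, 44.1% against 26.4% of all genes. All 15 were higher in papillary cells and 0 lower, while 13.1% of all genes were higher and 13.3% lower. Hoxa10 and Hoxc10 joined the 13 genes named so far. The median difference was 0.23 over the 34 Hox genes against 0.00 over all genes. The 3 comparisons share the papillary arrays, so they are not independent of each other.

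**Figure D2:**
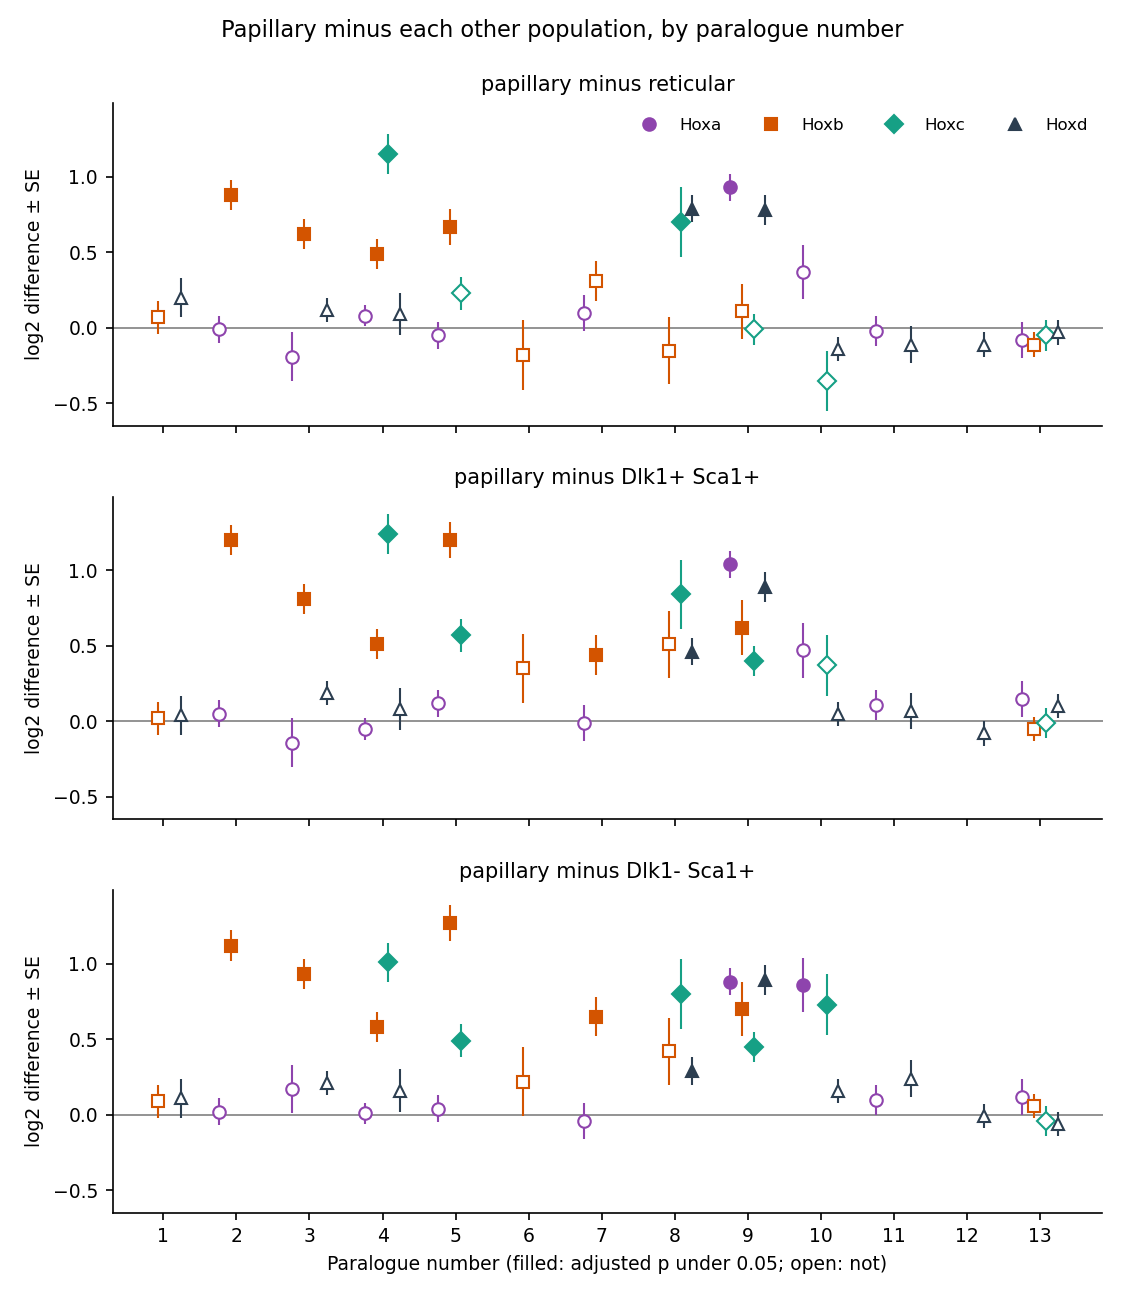
Log2 difference ± SE of papillary cells minus each other population, for the 34 Hox genes by paralogue number on the horizontal axis and by cluster in symbol and colour; filled symbols have an adjusted p under 0.05. All filled symbols lie above 0, and genes with numbers 11 to 13 lie between -0.11 and 0.24 with no filled symbol.

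The genes of cluster b with numbers 2 to 5 stood together. Hoxb2, known for its part in patterning the hindbrain, was at 7.75, 7.43 and 7.55 in papillary cells of animals 1, 2 and 3, at 6.84, 6.50 and 6.74 in reticular, at 6.43, 6.40 and 6.29 in Dlk1+ Sca1+ and at 6.54, 6.39 and 6.44 in Dlk1- Sca1+ cells. The papillary arrays did not overlap with the rest, and the differences were 0.88 ± 0.10 against reticular, 1.20 ± 0.10 against Dlk1+ Sca1+ and 1.12 ± 0.10 against Dlk1- Sca1+ cells (SE, limma adjusted p = 2.54e-05, 1.24e-06 and 2.53e-06). With the block, Hoxb2 was also lower in Dlk1+ Sca1+ than in reticular cells, at -0.32 ± 0.07, and lower in Dlk1- Sca1+ than in reticular cells, at -0.24 ± 0.07 (SE, limma adjusted p = 0.0181 and 0.0418).

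Hoxb3, a neighbour in the same cluster, read 7.0, 7.14 and 7.32 in papillary cells, 6.40, 6.49 and 6.70 in reticular, 6.31, 6.29 and 6.43 in Dlk1+ Sca1+ and 6.32, 6.26 and 6.10 in Dlk1- Sca1+ cells. Papillary was again above the others in each animal, by 0.62 ± 0.10, 0.81 ± 0.10 and 0.93 ± 0.10 in the same order (SE, limma adjusted p = 0.000472, 4.78e-05 and 1.53e-05). Its second probe set gave 0.44, 0.66 and 0.56, all called. Hoxb4, known for expanding blood stem cells when overexpressed, was at 7.35, 7.37 and 7.31 in papillary cells. Reticular arrays were at 6.78, 6.78 and 7.01, Dlk1+ Sca1+ at 6.61, 6.88 and 7.0, and Dlk1- Sca1+ at 6.87, 6.66 and 6.76, so the 3 CD26- populations overlapped with each other and not with papillary.

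The differences of Hoxb4 were 0.49 ± 0.10, 0.51 ± 0.10 and 0.58 ± 0.10 (SE, limma adjusted p = 0.00304, 0.00204 and 0.000889). Its second, dimmer probe set, with a mean of 5.46, gave 0.06 ± 0.12 against reticular cells (SE, limma adjusted p = 0.83) and was called in none of the 3. The call against reticular cells was also lost without animal 2, at an adjusted p of 0.0747 by limma.

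Hoxb5 showed 3 levels. Papillary cells were at 7.75, 7.65 and 7.84, reticular at 6.89, 7.14 and 7.19, Dlk1+ Sca1+ at 6.32, 6.59 and 6.73 and Dlk1- Sca1+ at 6.62, 6.33 and 6.47. Papillary lay above reticular and reticular above both Sca1+ populations without overlap, while the Sca1+ populations overlapped with each other. Papillary minus reticular was 0.67 ± 0.12, and papillary minus Dlk1- Sca1+ was 1.27 ± 0.12, a 2.42-fold difference and the largest among the Hox genes (SE, limma adjusted p = 0.000739 and 2.74e-06). Dlk1+ Sca1+ minus reticular was -0.53 ± 0.12 and Dlk1- Sca1+ minus reticular -0.60 ± 0.12 (SE, limma adjusted p = 0.0143 and 0.00312). The first of these was lost in 5 of the 15 fits that left out 1 array or 1 animal, and the second in 2, without animal 2 and without animal 3.

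Further along cluster b, Hoxb7 read 6.99, 6.68 and 6.98 in papillary cells, 6.44, 6.55 and 6.72 in reticular, 6.25, 6.70 and 6.37 in Dlk1+ Sca1+ and 6.08, 6.40 and 6.23 in Dlk1- Sca1+ cells. Only the last set did not overlap with papillary, where the difference was 0.65 ± 0.13 (SE, limma adjusted p = 0.00232), lost only without animal 3 at 0.0589. The difference from Dlk1+ Sca1+ cells was 0.44 ± 0.13 (SE, limma adjusted p = 0.0223), and it was lost in 6 of the 15 fits with arrays left out, at adjusted p up to 0.248 without animal 3.

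In cluster c the first and the later genes differed. Hoxc4, which takes part in shaping the cervical and thoracic vertebrae, had the largest difference between papillary and reticular cells. Its papillary arrays were at 8.62, 8.58 and 8.94, against 7.43, 7.68 and 7.57 in reticular, 7.30, 7.45 and 7.68 in Dlk1+ Sca1+ and 7.49, 7.69 and 7.92 in Dlk1- Sca1+ cells. Papillary was 1.15 ± 0.13, 1.24 ± 0.13 and 1.01 ± 0.13 higher (SE, limma adjusted p = 2.51e-05, 1.12e-05 and 7.28e-05), and the other populations overlapped.

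Hoxc5 was at 7.48, 7.56 and 7.25 in papillary, 7.21, 7.12 and 7.26 in reticular, 6.67, 6.98 and 6.94 in Dlk1+ Sca1+ and 6.78, 7.09 and 6.95 in Dlk1- Sca1+ cells. Papillary and reticular arrays overlapped, and both lay above the Sca1+ arrays. The papillary difference from reticular cells, 0.23 ± 0.11, was not called (SE, limma adjusted p = 0.156), whereas a second probe set of Hoxc5 gave 0.55 ± 0.09 and was called (SE, limma adjusted p = 0.000621). The differences from Dlk1+ Sca1+ and Dlk1- Sca1+ cells were 0.57 ± 0.11 and 0.49 ± 0.11 (SE, limma adjusted p = 0.00158 and 0.00475), and the second probe set gave 0.80 and 0.66. The call against Dlk1- Sca1+ cells was lost without animal 1, at 0.0508.

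Hoxc8, a gene of the thoracic region that also marks brachial motor neurons, was even in papillary cells, at 9.85, 9.71 and 9.86. It was uneven elsewhere, at 9.30, 8.76 and 9.26 in reticular, 9.14, 8.46 and 9.31 in Dlk1+ Sca1+ and 9.14, 8.53 and 9.35 in Dlk1- Sca1+ cells, where animal 2 was the lowest each time. The papillary differences were 0.70 ± 0.23, 0.84 ± 0.23 and 0.80 ± 0.23 (SE, limma adjusted p = 0.0411, 0.016 and 0.0219). With the block they kept their size, at 0.70 ± 0.12, 0.84 ± 0.12 and 0.80 ± 0.12 (SE, limma adjusted p = 0.000979, 0.000272 and 0.000408). Without animal 2 they were 0.57 ± 0.11, 0.63 ± 0.11 and 0.61 ± 0.11 (SE, limma adjusted p = 0.00731, 0.00404 and 0.00521). The call against reticular cells was lost in 7 of the 15 fits with arrays left out, at adjusted p up to 0.173 without the reticular array of animal 2. The call against Dlk1+ Sca1+ cells was lost in 3, at up to 0.0848, and the call against Dlk1- Sca1+ cells in 5, at up to 0.111.

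In cluster d the genes Hoxd8 and Hoxd9 were bright, and their patterns differed. Hoxd9, at 10.06, 9.97 and 9.99 in papillary cells, was at 9.07, 9.39 and 9.21 in reticular, 9.06, 9.23 and 9.07 in Dlk1+ Sca1+ and 9.17, 9.22 and 8.96 in Dlk1- Sca1+ cells. The 9 arrays outside papillary overlapped, and the differences were 0.78 ± 0.10, 0.89 ± 0.10 and 0.89 ± 0.10 (SE, limma adjusted p = 4.17e-05, 1.17e-05 and 1.24e-05). Hoxd8 had papillary values of 9.39, 9.31 and 9.48, reticular values of 8.54, 8.73 and 8.53, Dlk1+ Sca1+ values of 8.93, 8.85 and 9.01 and Dlk1- Sca1+ values of 8.98, 9.08 and 9.25. Papillary was highest and reticular lowest, each without overlap, with the Sca1+ populations between them. It was the only Hox gene with all 3 reticular arrays below the 9 others, which 3.23% of all genes showed.

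For Hoxd8 the papillary differences were 0.79 ± 0.09, 0.46 ± 0.09 and 0.29 ± 0.09 (SE, limma adjusted p = 2.07e-05, 0.00155 and 0.0306). The last was lost in 7 of the 15 fits with arrays left out, at adjusted p up to 0.228 without animal 1. A second probe set of Hoxd8 gave 0.78, 0.51 and 0.33, all called.

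In cluster a, Hoxa9, known from blood progenitors and, together with Meis1, from leukaemia, was at 9.36, 9.20 and 9.21 in papillary cells, 8.16, 8.41 and 8.40 in reticular, 8.04, 8.28 and 8.32 in Dlk1+ Sca1+ and 8.34, 8.40 and 8.39 in Dlk1- Sca1+ cells. Its papillary values were 0.93 ± 0.09, 1.04 ± 0.09 and 0.88 ± 0.09 higher, without overlap (SE, limma adjusted p = 7.36e-06, 2.13e-06 and 1.1e-05). Hoxa10, a gene needed in the uterus, lay in the range of the dim reference, at 5.11, 5.16 and 5.69 in papillary, 5.0, 4.91 and 4.94 in reticular, 4.57, 4.75 and 5.24 in Dlk1+ Sca1+ and 4.23, 4.49 and 4.65 in Dlk1- Sca1+ cells. It was called only against Dlk1- Sca1+ cells, at 0.86 ± 0.18 (SE, limma adjusted p = 0.00269), and with the block also against the other 2 populations.

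**Figure D3:**
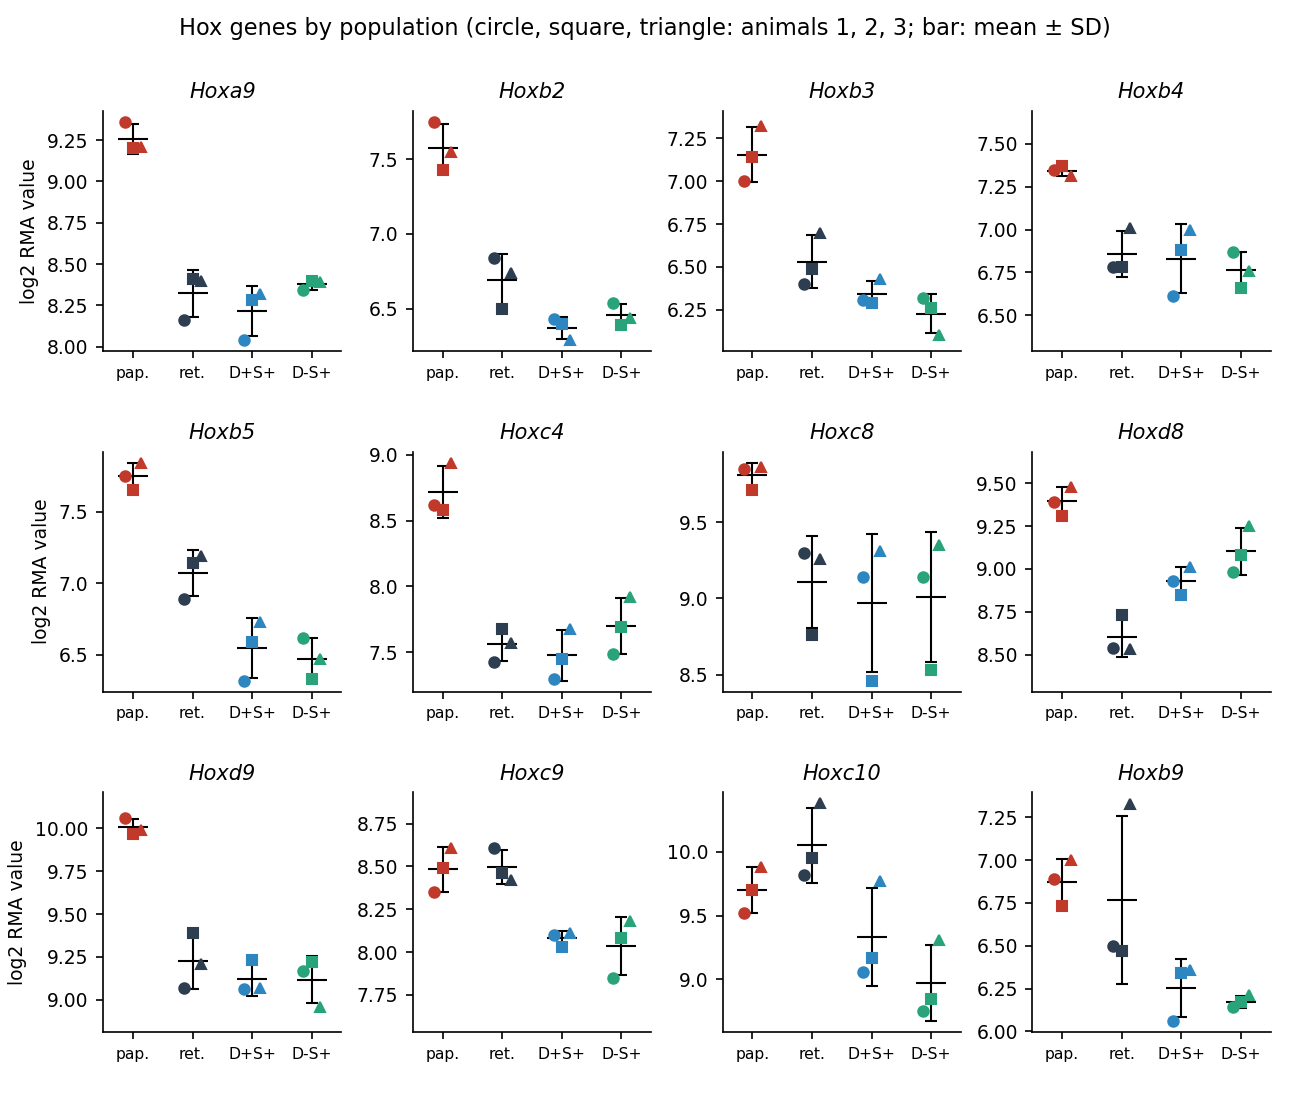
Log2 RMA values of 12 Hox genes in papillary (pap.), reticular (ret.), Dlk1+ Sca1+ (D+S+) and Dlk1- Sca1+ (D-S+) cells, with 1 symbol per animal and the mean ± SD of 3 animals; each panel has its own vertical axis. Papillary arrays stand clear of the rest in the first 9 panels, Hoxc9 overlaps between papillary and reticular cells, and the highest Hoxc10 mean is the reticular 10.05.

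The 9 genes called against reticular cells come from all 4 clusters. RefSeq promoters were found for 5 of them, and for 21 of the 34 members. The 250 bases before the start of each of the 5 are shown because these members shared that call, although their patterns over the other populations differed. They are given in the GRCm38.p6 build, 5′ to 3′ on the strand of the gene. Capitals mark TAAT or its reverse complement ATTA, the core that many homeodomain proteins bind.
Hoxa9, chr6:52227371-52227620, minus strand: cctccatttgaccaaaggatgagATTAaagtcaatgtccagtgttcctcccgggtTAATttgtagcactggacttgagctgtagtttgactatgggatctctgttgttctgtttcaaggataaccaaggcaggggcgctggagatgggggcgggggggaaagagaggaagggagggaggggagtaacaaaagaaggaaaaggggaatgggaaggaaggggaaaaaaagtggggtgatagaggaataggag
Hoxb4, chr11:96318017-96318266, plus strand: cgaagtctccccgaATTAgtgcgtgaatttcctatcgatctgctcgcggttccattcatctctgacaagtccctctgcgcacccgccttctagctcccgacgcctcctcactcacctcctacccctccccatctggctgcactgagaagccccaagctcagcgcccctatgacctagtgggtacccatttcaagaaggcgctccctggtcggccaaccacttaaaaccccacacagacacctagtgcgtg
Hoxc4, chr15:103034145-103034394, plus strand: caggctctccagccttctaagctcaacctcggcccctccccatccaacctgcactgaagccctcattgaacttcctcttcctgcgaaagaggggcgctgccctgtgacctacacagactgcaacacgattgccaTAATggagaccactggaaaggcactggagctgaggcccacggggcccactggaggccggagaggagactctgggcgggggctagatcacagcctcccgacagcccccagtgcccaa
Hoxd8, chr2:74704365-74704614, plus strand: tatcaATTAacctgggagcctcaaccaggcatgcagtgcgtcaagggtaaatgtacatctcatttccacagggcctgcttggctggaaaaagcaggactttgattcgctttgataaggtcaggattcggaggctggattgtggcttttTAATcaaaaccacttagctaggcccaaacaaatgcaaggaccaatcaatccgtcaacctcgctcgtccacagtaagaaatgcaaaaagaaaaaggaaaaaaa
Hoxd9, chr2:74697513-74697762, plus strand: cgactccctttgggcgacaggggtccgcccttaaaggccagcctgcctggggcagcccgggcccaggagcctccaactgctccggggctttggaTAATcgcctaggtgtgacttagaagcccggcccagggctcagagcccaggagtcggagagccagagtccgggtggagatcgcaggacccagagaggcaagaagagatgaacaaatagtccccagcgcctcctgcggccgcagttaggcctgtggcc

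Each of the 5 windows held TAAT or ATTA, with 2 matches in Hoxa9 and in Hoxd8 and 1 in each of the others. The core is short, and 54.9% of the 32851 promoter windows of this length in the table held it, with a median of 1 match. The composite Pbx and Hox motif TGATNNAT, the Meis motif TGACAG and the TATA box TATAAA, each searched on both strands, were in none of the 5 windows. They were in 7.68%, 15.9% and 12.4% of all windows. The GC share of the 5 windows ran from 44.4% for Hoxd8 to 65.2% for Hoxd9, around the median of 52.4% of all windows. A match is a description of letters and not a binding site.

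The CD26- populations were then set against each other. Between Dlk1+ Sca1+ and reticular cells 4 Hox genes were called, 11.8% against 8.43% of all genes, with Hoxd8 higher and Hoxb5, Hoxc9 and Hoxc10 lower in Dlk1+ Sca1+ cells. Over all genes 4.06% were higher and 4.37% lower. Between Dlk1- Sca1+ and reticular cells 6 were called, 17.6% against 18.2% of all genes, with Hoxd8 higher and Hoxb5, Hoxb9, Hoxc9, Hoxc10 and Hoxd10 lower. Over all genes 9.36% were higher and 8.8% lower. The members' shares were near those of all genes in both comparisons. The median difference was -0.12 in each, against -0.01 over all genes.

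These counts moved with the fit. With the block, 5 and 10 genes were called, the additions being Hoxb2 in the first and Hoxa10, Hoxb2, Hoxb3 and Hoxd11, all lower in Dlk1- Sca1+ cells, in the second. Without animal 2 the counts were 0 and 1. The first count was also 1 without animal 1 or without animal 3, and the second was 3 without animal 3.

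Hoxc9, which sets the thoracic identity of motor neurons, separated the Sca1- from the Sca1+ populations. Its values were 8.35, 8.49 and 8.61 in papillary, 8.61, 8.46 and 8.42 in reticular, 8.10, 8.03 and 8.11 in Dlk1+ Sca1+ and 7.85, 8.08 and 8.18 in Dlk1- Sca1+ cells. Papillary and reticular overlapped, with a difference of -0.01 and a 95% interval from -0.23 to 0.20, and so did the Sca1+ populations. Reticular cells were higher than Dlk1+ Sca1+ cells by 1.33-fold and higher than Dlk1- Sca1+ cells by 1.38-fold, as differences of -0.42 ± 0.10 and -0.46 ± 0.10 of the Sca1+ minus the reticular level (SE, limma adjusted p = 0.0185 and 0.00499). Papillary cells were 0.40 ± 0.10 and 0.45 ± 0.10 above the same populations (SE, limma adjusted p = 0.00679 and 0.00376). Of these 4 calls, the first was lost in 6 of the 15 fits with arrays left out, and the others in 1 or 2.

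Hoxc10, a gene of the lumbar region, had its highest mean in reticular cells. It was at 9.52, 9.70 and 9.88 in papillary, 9.82, 9.95 and 10.38 in reticular, 9.06, 9.17 and 9.77 in Dlk1+ Sca1+ and 8.75, 8.85 and 9.31 in Dlk1- Sca1+ cells. Within each population animal 3 was the highest and animal 1 the lowest, and within each animal the order was reticular, papillary, Dlk1+ Sca1+ and Dlk1- Sca1+. Dlk1- Sca1+ minus reticular was -1.08 ± 0.20, a 2.11-fold difference, and Dlk1+ Sca1+ minus reticular was -0.72 ± 0.20 (SE, limma adjusted p = 0.0022 and 0.0476). Papillary minus Dlk1- Sca1+ was 0.73 ± 0.20 (SE, limma adjusted p = 0.0164). This last call was lost in 5 of the 15 fits with arrays left out, at adjusted p up to 0.17 by limma, and Dlk1- Sca1+ minus reticular was lost without animal 2, at 0.0547.

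The 3 other pairs for Hoxc10 were not called without the block. With it, all 6 pairs were called: papillary minus reticular -0.35, papillary minus Dlk1+ Sca1+ 0.37, papillary minus Dlk1- Sca1+ 0.73, Dlk1+ Sca1+ minus reticular -0.72, Dlk1- Sca1+ minus reticular -1.08 and Dlk1- Sca1+ minus Dlk1+ Sca1+ -0.36, each ± 0.08 (SE, limma adjusted p from 4.69e-06 to 0.0126). Without the block, the difference between Dlk1+ Sca1+ and reticular cells was lost in 10 of the 15 fits with arrays left out, at adjusted p up to 0.318 without animal 2.

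Hoxd8 ran the other way, 0.33 ± 0.09 higher in Dlk1+ Sca1+ and 0.50 ± 0.09 higher in Dlk1- Sca1+ than in reticular cells (SE, limma adjusted p = 0.041 and 0.00163). The first was lost in 11 of the 15 fits with arrays left out, and the second only without animal 3, at 0.0581. Hoxd10, whose probe set was dim, read 4.06, 4.01 and 3.99 in papillary, 4.24, 4.09 and 4.16 in reticular, 3.98, 4.09 and 3.84 in Dlk1+ Sca1+ and 3.80, 3.90 and 3.87 in Dlk1- Sca1+ cells. Its difference of Dlk1- Sca1+ minus reticular, -0.31 ± 0.08, was called (SE, limma adjusted p = 0.0149) although all its values lay below the median of 4.42 of the receptor genes that served as dim reference, and it was lost in 5 of the 15 fits with arrays left out.

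Between the Sca1+ populations limma called 0 Hox genes, against 7.36% of all genes. At an unadjusted p under 0.05 the only Hox gene was Hoxa10, against 18.7% of all genes, with a difference of -0.40 and a 95% interval from -0.79 to -0.01. For Hoxd9 the difference was 0.00, with an interval from -0.21 to 0.21, and for Hoxb5 it was -0.07, with an interval from -0.33 to 0.18. With the block, Hoxc10 was called, as given above.

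In 3 genes of cluster b 1 array set the reticular mean. Hoxb8, near the middle of the cluster, was at 7.53 and 7.58 in reticular cells of animals 1 and 2 and at 8.56 in animal 3, while papillary cells were at 7.62, 7.80 and 7.81, Dlk1+ Sca1+ at 7.27, 7.17 and 7.25 and Dlk1- Sca1+ at 7.63, 7.14 and 7.19. Hoxb9 was at 6.50, 6.47 and 7.33 in reticular cells, 6.89, 6.73 and 7.0 in papillary, 6.06, 6.34 and 6.36 in Dlk1+ Sca1+ and 6.14, 6.17 and 6.21 in Dlk1- Sca1+ cells. The dimmer Hoxb6 was at 5.03, 4.76 and 5.77 in reticular cells and between 4.38 and 5.14 on the other arrays. In all 3 genes the reticular array of animal 3 was the highest of the 12 arrays.

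The gap from animal 3 to the higher of the other 2 reticular arrays was 0.74 for Hoxb6, 0.98 for Hoxb8 and 0.83 for Hoxb9, and 11 of 17097 genes, 0.0643%, had a gap that large. In Hoxb7, which lies among them, the gap was 0.17, and in the other clusters the largest was 0.43, for Hoxc10. These genes were picked after their values were seen.

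The results for these genes depended on that array. Papillary minus reticular was 0.11 ± 0.18 for Hoxb9 (SE, limma adjusted p = 0.775) and, without the reticular array of animal 3, 0.39 ± 0.11 (SE, limma adjusted p = 0.0196). Dlk1- Sca1+ minus reticular was -0.59 ± 0.18 for Hoxb9 (SE, limma adjusted p = 0.0412) and without that array -0.31 ± 0.11 (SE, limma adjusted p = 0.0786). That call was also lost when arrays were rescaled and in 12 of the 15 fits with arrays left out. Papillary cells were above Dlk1+ Sca1+ cells in Hoxb9 by 0.62 ± 0.18 and above Dlk1- Sca1+ cells by 0.70 ± 0.18 (SE, limma adjusted p = 0.0223 and 0.012), and without the array the SE of both fell to 0.10. With all arrays but 1 array or animal, the first call was lost in 5 of 15 fits, at adjusted p up to 0.168 by limma, and the second in 2, at up to 0.0773. Hoxb8 was called in no pair with all arrays, and without that array papillary cells were higher than Dlk1+ Sca1+ cells by 0.51 ± 0.12 and than Dlk1- Sca1+ cells by 0.42 ± 0.12 (SE, limma adjusted p = 0.006 and 0.0191).

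**Figure D4:**
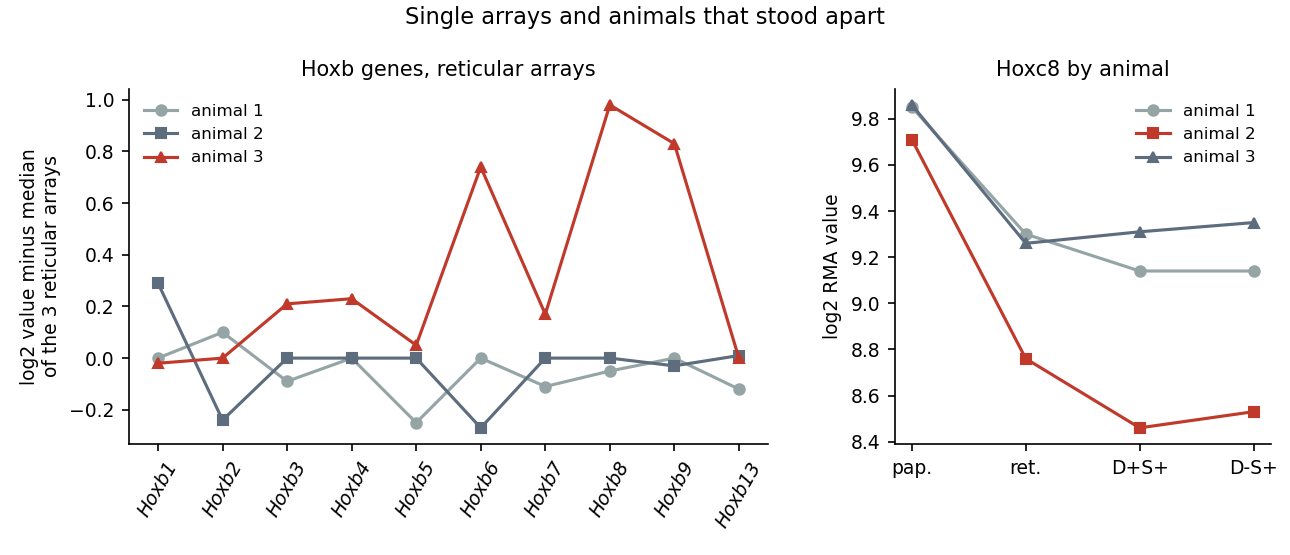
Left, log2 values of the 10 measured Hoxb genes on the 3 reticular arrays minus the median of those arrays; right, log2 RMA values of Hoxc8 in papillary (pap.), reticular (ret.), Dlk1+ Sca1+ (D+S+) and Dlk1- Sca1+ (D-S+) cells, with lines joining the arrays of an animal. Animal 3 stands at 0.74, 0.98 and 0.83 in Hoxb6, Hoxb8 and Hoxb9, and animal 2 is lowest in Hoxc8 in every population, with gaps of 0.5 or more outside papillary cells.

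Animal 2 stood apart in Hoxc8. It lay below both littermates by 0.5 in reticular cells, by 0.68 in the Dlk1+ Sca1+ gate and by 0.61 in the Dlk1- Sca1+ gate, and of 17097 genes Hoxc8 was the only one with gaps of at least 0.5 in all 3. Its neighbours Hoxc9 and Hoxc10 did not share the pattern, with gaps of -0.04 and -0.13 in reticular cells, where a negative gap means that animal 2 was not the lowest. This gene too was picked after its values were seen.

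The 18 other members were called in no pair. Their largest difference was 0.66, that of Hoxb8, and their smallest adjusted p by limma was 0.068, that of Hoxd11. Hoxa2, Hoxa3, Hoxa4, Hoxa5, Hoxa7, Hoxa11 and Hoxa13 make up most of cluster a, and of these Hoxa3, Hoxa7 and Hoxa13 were above the dim reference. Hoxa3 ran from 6.83 to 7.74 over the 12 arrays and Hoxa7 from 6.42 to 6.85, with the populations overlapping. In cluster b the uncalled genes were Hoxb1, Hoxb6, Hoxb8 and Hoxb13.

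In cluster c the only uncalled gene was Hoxc13, a regulator of hair keratins, whose population means lay between 5.5 and 5.55. In cluster d the uncalled genes were Hoxd1, Hoxd3, Hoxd4, Hoxd11, Hoxd12 and Hoxd13, and only Hoxd4, at 6.42 to 6.94 over the 12 arrays, was above the dim reference. Hoxa13 and Hoxd13, the genes of the digits and the genital region, differed by at most 0.23 and 0.16 between population means.

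The differences did not form a steady gradient along the clusters. Over the 19 genes above the dim reference, Spearman's correlation of the paralogue number with the papillary difference was -0.25 against reticular, -0.15 against Dlk1+ Sca1+ and -0.19 against Dlk1- Sca1+ cells, given as a description, since the genes share the same arrays. Of the 7 genes with numbers 9 to 10, 2, 4 and 6 were called in the 3 papillary comparisons. Of the 9 with numbers 5 to 8, 3, 5 and 5 were called, of the 11 with numbers 1 to 4, 4 in each, and of the 7 with numbers 11 to 13, 0 in each. By cluster, the calls against Dlk1- Sca1+ cells were 2 of 9 in cluster a, 6 of 10 in b, 5 of 6 in c and 2 of 9 in d. Of all genes, 27.5%, 28% and 26.4% were called in the 3 papillary comparisons. Of the 15 Hox genes not above the dim reference, 0, 0 and 1 were called. These dim genes held most of clusters a and d and 6 of the 7 genes with numbers 11 to 13. Position and probe brightness therefore cannot be told apart in these counts.

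Genes of the same paralogue number had unlike calls, and the differences between them were not tested. Of the genes numbered 4, Hoxb4 and Hoxc4 were called in the 3 papillary comparisons, while Hoxa4 and Hoxd4 had differences between -0.05 and 0.16. Hoxa4, with a mean of 5.74, was not above the dim reference, and the second probe set of Hoxb4 was called in none of the 3. Of those numbered 9, Hoxa9 and Hoxd9 were called in all 3, while Hoxb9 and Hoxc9 were called only against the Sca1+ populations. Of those numbered 8, Hoxc8 and Hoxd8 were called in all 3 and Hoxb8 in none.

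Of the DNA-binding partners of Hox proteins, 8 of 9 listed genes were measured, all above the dim reference. Meis1 and Meis2, whose proteins bind DNA beside Hox proteins, and Pbx3, a Pbx family member, were lower in both Sca1+ populations than in papillary and in reticular cells. Between papillary and reticular cells they were not called, at 0.15 ± 0.10, 0.02 ± 0.10 and 0.06 ± 0.12 (SE, limma adjusted p = 0.339, 0.944 and 0.805). Pknox2, a relative of Meis, was highest in reticular cells. In the pair of papillary and reticular cells 0 of the 8 were higher and 1 lower, and 3 higher and 1 lower against Dlk1+ Sca1+ cells. Against Dlk1- Sca1+ cells 4 were higher in papillary cells and 0 lower. In both Sca1+ populations 4 were lower than in reticular cells and 0 higher. Of all genes, 13.9%, 14.1% and 13.1% were higher and 13.6%, 13.9% and 13.3% lower in the 3 papillary comparisons. In Dlk1+ Sca1+ and Dlk1- Sca1+ cells 4.37% and 8.8% of all genes were lower than in reticular cells, and 4.06% and 9.36% higher.

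Meis1 was at 8.70, 8.58 and 8.59 in papillary, 8.64, 8.31 and 8.48 in reticular, 7.69, 7.97 and 7.90 in Dlk1+ Sca1+ and 7.74, 7.74 and 7.85 in Dlk1- Sca1+ cells. No Sca1+ array reached the lowest Sca1- array, as was also seen for Hoxc9. Papillary cells were 0.77 ± 0.10 and 0.85 ± 0.10 above the Sca1+ populations, and Dlk1+ Sca1+ and Dlk1- Sca1+ minus reticular were -0.62 ± 0.10 and -0.70 ± 0.10 (SE, limma adjusted p from 2.04e-05 to 0.00132).

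Meis2 was at 9.62, 9.72 and 9.64, 9.53, 9.55 and 9.85, 9.02, 8.95 and 9.06, and 8.47, 8.48 and 8.75 in the same order of populations, and Dlk1- Sca1+ minus Dlk1+ Sca1+, -0.44 ± 0.10, was called too (SE, limma adjusted p = 0.0162). Pbx3 had means of 7.89 ± 0.15, 7.83 ± 0.09, 7.18 ± 0.25 and 7.13 ± 0.06 (SD, n = 3). Pknox2 read 6.88, 6.46 and 6.48 in papillary, 8.37, 8.35 and 8.25 in reticular, 7.80, 6.91 and 7.41 in Dlk1+ Sca1+ and 6.35, 5.66 and 5.70 in Dlk1- Sca1+ cells. All 6 pairs of Pknox2 were called, the largest being Dlk1- Sca1+ minus reticular at -2.42 ± 0.22, a 5.35-fold difference (SE, limma adjusted p = 6.27e-06). The other partners, Pbx2, Pbx4, Meis3 and Pknox1, were called in no pair.

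**Figure D5:**
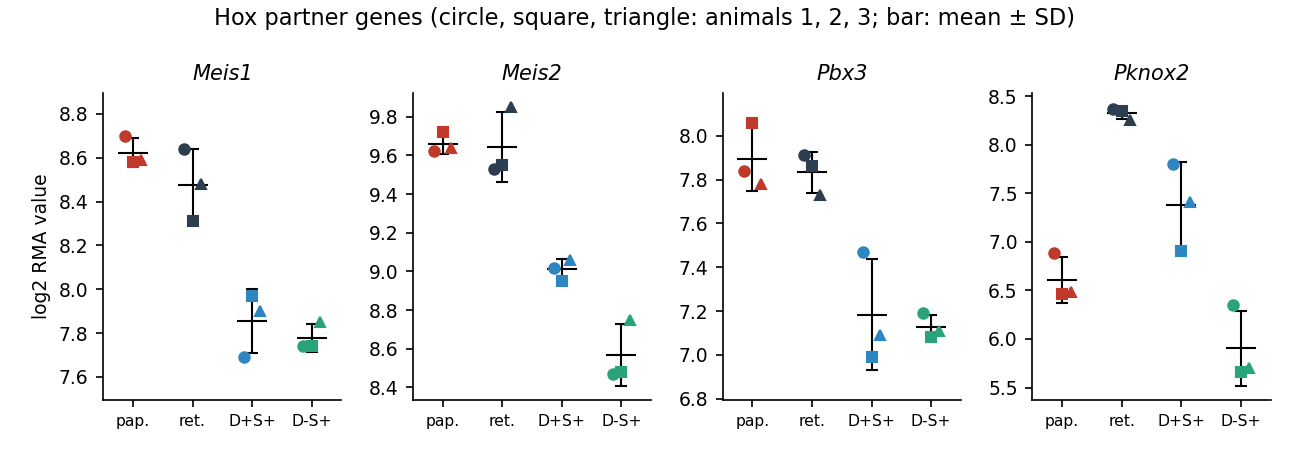
Log2 RMA values of Meis1, Meis2, Pbx3 and Pknox2 in papillary (pap.), reticular (ret.), Dlk1+ Sca1+ (D+S+) and Dlk1- Sca1+ (D-S+) cells, with 1 symbol per animal and the mean ± SD of 3 animals; each panel has its own vertical axis. In the first 3 genes papillary and reticular arrays overlap and lie above both Sca1+ populations, and Pknox2 is highest in reticular cells, with a mean of 8.32.

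Of the non-coding transcripts of the clusters 4 of 17 listed were measured. Hoxb5os, an antisense transcript beside Hoxb5, was at 6.27, 6.60 and 6.77 in papillary cells, and its means were 5.95 in reticular cells and 5.93 in each Sca1+ population. Its differences of 0.59, 0.62 and 0.61, each ± 0.15, were called (SE, limma adjusted p = 0.00773, 0.00591 and 0.00652). The dimmer Hoxd3os1, with means of 5.56, 4.96, 5.21 and 5.18, was higher in papillary cells by 0.60 ± 0.11, 0.35 ± 0.11 and 0.38 ± 0.11 (SE, limma adjusted p = 0.000953, 0.028 and 0.0203), while Hoxd3 itself was called in no pair. Hoxa11os and Hoxaas2 were called in no pair.

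Genes that flank the clusters were read for comparison. Against reticular cells 1 of 6 flanking genes of cluster a was higher in papillary cells, 1 of 6 of cluster b, 3 of 7 of cluster c and 3 of 6 of cluster d, and 0 were lower. Of all genes, 13.9% were higher and 13.6% lower. Against Dlk1+ Sca1+ cells 0, 1, 2 and 2 flanking genes of clusters a to d were higher and 0, 1, 0 and 0 lower. Over all genes 14.1% were higher and 13.9% lower. Against Dlk1- Sca1+ cells 1, 0, 1 and 2 were higher and 1, 1, 0 and 2 lower, against 13.1% and 13.3% of all genes. With the animal as a block, Tax1bp1 of cluster a and Atf7 and Smug1 of cluster c were also called higher than in reticular cells. The block added Jazf1, Hnrnpa1 and Atf2 as higher and Hibadh as lower against Dlk1+ Sca1+ cells. It added Cbx1 and Atf7 as higher against Dlk1- Sca1+ cells. Beside cluster d, Chn1, which encodes a signalling protein for Rac, had means of 9.33 in papillary, 7.54 in reticular, 6.61 in Dlk1+ Sca1+ cells and, in the Dlk1- Sca1+ gate, 6.63. Its differences of 1.79, 2.71 and 2.70, each ± 0.16, were larger than that of any Hox gene. On the same side of the cluster, Lnpk was 0.36, 0.38 and 0.40 higher in papillary cells, each ± 0.09, all called (SE, limma). Evx2 and Atf2, also flanking genes of cluster d, were called in no pair without the block.

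Mtx2, a mitochondrial import gene next to Hoxd1, differed from Hoxd8 and Hoxd9 in its pattern. It was highest in Dlk1- Sca1+ cells, with means of 8.90, 8.43, 8.83 and 9.24 in the order used above, and was 0.47 ± 0.08 higher in papillary than in reticular cells and -0.34 ± 0.08 against Dlk1- Sca1+ cells (SE, limma adjusted p = 0.000758 and 0.00758). Beside cluster c, Cbx5, a heterochromatin protein gene, was 0.58, 0.76 and 0.56 higher in papillary cells, each ± 0.09, all called (SE, limma).

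Among genes that set or keep Hox patterns the calls went in both directions. Of 21 measured Polycomb genes, whose proteins silence Hox genes, 2 were higher and 3 lower in papillary than in reticular cells. Over all genes 13.9% were higher and 13.6% lower in that comparison, so calls in both directions are not particular to these genes. Bmi1 was higher in papillary cells by 0.52 ± 0.15, 0.89 ± 0.15 and 0.58 ± 0.15 against the 3 others, and Cbx6 was lower by 1.4-fold than in reticular cells (SE, limma adjusted p = 0.0177, 0.000437, 0.0095 and 0.00036). For Ezh1, a histone methyltransferase gene, papillary minus Dlk1+ Sca1+ and minus Dlk1- Sca1+ was -0.38 ± 0.09 and -0.61 ± 0.09 (SE, limma adjusted p = 0.00767 and 0.00025). Of 9 measured trithorax group genes, whose proteins keep Hox genes active, 1 was higher and 2 lower against reticular cells, with Dpy30 at 0.63 ± 0.10 (SE, limma adjusted p = 0.000381) and Kdm6a at -0.37 ± 0.10 (SE, limma adjusted p = 0.0139). These counts moved with the animal as a block. Ash2l and Psip1 were then called higher in papillary than in reticular cells as well (limma adjusted p = 0.0275 and 0.0353). The Polycomb gene Rbbp7 was then called lower (limma adjusted p = 0.0346).

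Of 8 measured genes that act upstream of Hox genes in the embryo, 2 were higher and 1 lower in papillary than in reticular cells. The shares of all genes were 13.9% and 13.6%. Only 4 of the 8 were above the dim reference. Cdx1, Cdx2 and Cdx4, the classical activators of Hox genes in the tail of the embryo, were called in no pair. Cdx1 and Cdx4 were dim, with population means of 4.56 to 4.65 and of 3.90 to 3.98, under the reference of 5.95. Cdx2 means were 6.37 to 6.50, and the highest receptor gene was at 6.5. The missing calls therefore do not show equal levels. Zbtb16, a zinc-finger gene that regulates Hox genes in the limb, was higher in the Sca1+ populations than in reticular cells by 1.13 ± 0.15 and 1.25 ± 0.15 (SE, limma adjusted p = 0.000394 and 7.29e-05). Gmnn was higher in papillary than in reticular cells by 0.54 ± 0.10 and Egr2 lower, at -0.88 ± 0.11 (SE, limma adjusted p = 0.00101 and 5.43e-05). Gmnn means were 6.30 in papillary cells and 5.76, 5.56 and 5.90 in the others, which lie under the dim reference.

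Other genes of regional identity, 17 measured, had 3 higher and 4 lower in papillary than in reticular cells, against 13.9% and 13.6% of all genes. With the animal as a block, Tbx15 was called higher too (limma adjusted p = 0.0334). En1, a homeobox gene of the back dermis and the ventral limb, was 0.88 ± 0.13, 0.96 ± 0.13 and 0.73 ± 0.13 higher in papillary cells than in the 3 others (SE, limma adjusted p = 0.000141, 6e-05 and 0.000631). Its mean was 6.33 in papillary cells and 5.45, 5.37 and 5.60 in the others, under the dim reference of 5.95. Tbx3 was highest in reticular cells, with a mean of 7.61 against 6.38, 6.43 and 6.11. Alx4 had means of 5.72, 6.79, 5.74 and 7.48, and Emx2 means of 7.46, 7.55, 7.25 and 6.45, each in that same sequence of populations. Alx4 and Emx2 were called between the Sca1+ populations, with 1.74 ± 0.09 and -0.79 ± 0.10 for Dlk1- Sca1+ minus Dlk1+ Sca1+ (SE, limma adjusted p = 2.83e-07 and 0.000208).

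Markers of other cell types moved with some of these results. Levels summed over 12 endothelial markers on the linear scale were 718 to 791 in papillary cells, 1091 to 1213 in reticular, 1251 to 1733 in Dlk1+ Sca1+ and 1615 to 1886 in Dlk1- Sca1+ cells, with Tie1, Emcn, Vwf, Cldn5 and Sox17 not above the dim reference in any population. A linear sum is weighted towards its brightest markers. By single marker, Dlk1- Sca1+ minus Dlk1+ Sca1+ had a median of -0.21, with 1 of 12 called higher and 0 lower. Papillary cells were lower in 4, 5 and 2 of the 12 against reticular, Dlk1+ Sca1+ and Dlk1- Sca1+ cells, and higher in 0. For 7 pericyte and smooth muscle markers the sums were 743 to 868, 2385 to 3697, 1423 to 2281 and 1497 to 1569, and all 7 were above the reference in reticular cells. For 12 skeletal muscle markers they were 653 to 688, 1245 to 1712, 881 to 1027 and 663 to 729, with Myh3, Myh8, Myog, Myf5 and Pax7 not above the reference in any population. Papillary cells, where the 9 Hox genes were high, were lowest without overlap in the endothelial and pericyte sums and overlapped with Dlk1- Sca1+ cells in the muscle sum. The part of other cells in the Hox differences was not tested.

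For 10 keratinocyte markers the sums were 1053 to 3894, 1210 to 4610, 1915 to 4609 and 2282 to 12572, the last in animal 1, with Cdh1 not above the reference in any population. For 7 melanocyte and Schwann cell markers they were 567 to 603, 617 to 732, 760 to 1071 and 718 to 2044, the last also in animal 1. For 9 immune markers they were 441 to 500, 552 to 617, 588 to 632 and 535 to 569, with Ptprc, Adgre1, Lyz2, Cd3e and Tyrobp not above the reference in any population. Papillary cells were thus lowest without overlap in the immune sum and in the melanocyte and Schwann cell sum too, and overlapped with the others in the keratinocyte sum. Of the Hox genes named with values, the Dlk1- Sca1+ array of animal 1 was the highest of its group in Hoxb2, Hoxb3, Hoxb4, Hoxb5, Hoxb6 and Hoxb8 and the lowest in Hoxa9, Hoxa10, Hoxb7, Hoxb9, Hoxc4, Hoxc5, Hoxc9, Hoxc10, Hoxd8 and Hoxd10. The calls of Hoxa9, Hoxb2, Hoxb3, Hoxb4, Hoxb5, Hoxc4 and Hoxd9 against Dlk1- Sca1+ cells held in all 15 fits with arrays left out, that array among them.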

How the data were processed

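Transcripts were measured on Affymetrix arrays in 12 samples, 4 sorted populations from each of 3 littermates. Per the labels' protocols, the RNA of 4500 cells, bound to beads, went through 21 cycles of amplification before 8 µg of cDNA received biotin. The authors deposited log2 expression values, which the submitters' processing notes credit to RMA in affy. Its version and a genome build are not given in the sources used here. That method normalizes by quantiles and compresses differences of dim probe sets. Of 45141 probe sets, 28898 had 1 gene symbol in the platform annotation, 551 had several and 15588, beside 104 controls, had none. The brightest single-symbol probe set stood for each of 17097 genes, 6 of the 34 Hox genes having several.

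In limma 3.58.1, run under R 4.3.3, 1 model with the population as factor took in all genes and arrays, with 8 residual and 4.47 prior degrees of freedom, and 6 contrasts, each adjusted by Benjamini-Hochberg over all genes (called under 0.05). On simulated data in the papillary and reticular contrast of 17097 genes, 57% of log2 changes of 0.5 and 98% of changes of 1 were recovered, with 13 false calls. Only 100 genes per size were changed there, and no animal effect was built in. In the data 27.5% of genes were called in this contrast, so recovery there can differ. The number of arrays, 3 per population, limits the precision. The labels' animal numbers pair the samples: deviations from the population means correlated across genes with a mean r of 0.266 between arrays of the same animal (0.086 to 0.432, 17 of 18 pairs above 0.1) and -0.132 between animals. The negative value follows from centring each population on its 3 arrays and is not a separate observation.

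The members, gene lists and tests were chosen with earlier results of these data known. Values are given on every array for Hox genes called in any pair or by the F-test, and for up to 4 called genes per other list by size. Promoters are RefSeq's, cut to the 250 bases before the start. Alternatives were the animal as a block, rescaled arrays, a filter on dim genes, all probe sets averaged, limma-trend, the compared arrays alone, and single arrays or animals left out. Figures were drawn with matplotlib 3.10.9.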

Additional observations from a re-analysis of the deposited data

How the results depend on the processing

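Of the called differences of single Hox genes, 327 values under other settings gave 315 with the call kept, 12 with it lost and 0 reversed, and 705 values with an array or animal left out gave 604 kept, 101 lost and 0 reversed. With the animal as a replicate block, 10 Hox genes were called between Dlk1- Sca1+ and reticular cells in place of 6, and 1 between the Sca1+ populations in place of 0; the block changed the call counts of no other comparison by over 1.5 times. With only the 6 arrays compared, 2 were called between Dlk1+ Sca1+ and reticular cells in place of 4. With arrays or animals left out, Hox counts ran from 8 to 9 for papillary against reticular, 10 to 14 against Dlk1+ Sca1+, 10 to 16 against Dlk1- Sca1+, 0 to 4 for Dlk1+ Sca1+ against reticular, 1 to 8 for Dlk1- Sca1+ against reticular, 0 to 0 between the Sca1+ populations and 10 to 17 for the F-test. Where leaving out an animal leaves 2 arrays a group, fewer samples enter the fit. Rescaling moved the median of all genes by at most 0.0467. Signal near the dim reference limits the 15 dim Hox genes.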

Other observations

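The genes besides Hoxb6, Hoxb8 and Hoxb9 in which the reticular array of animal 3 exceeded both other reticular arrays by at least 0.74 were Frrs1l (6.32 against 5.19 and 5.36), Sim2 (9.08 against 8.15 and 7.66), Tfap2c (7.60 against 6.68 and 6.55), Adamts20 (8.22 against 6.93 and 7.31), Cxcl13 (7.98 against 6.87 and 7.09), Prss35 (7.65 against 6.74 and 6.77), Sema4a (8.46 against 7.36 and 7.65) and Plac8 (8.42 against 7.32 and 7.65). They were chosen after their values were seen. Sim2 and Tfap2c, like the Hox genes, encode transcription factors that act in development.

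Over the 21 Hox genes with a RefSeq promoter, the 250 bases before the start held the composite motif TGATNNAT in 4 genes (Hoxa2, Hoxb1, Hoxb8 and Hoxd11), the Meis motif TGACAG in 2 (Hoxa2 and Hoxa3) and TATAAA in 4 (Hoxa10, Hoxb8, Hoxd4 and Hoxd13), counting both strands. TAAT or ATTA was in 15 of the 21.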
